A study of Mus musculus with 4 samples.

Results

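The genes described are 10 transcription factors and cofactors that direct CD8+ T cells towards effector fates: Tbx21, Eomes, Prdm1, Id2, Zeb2, Runx3, Bhlhe40, Rora, Nfil3 and Nfatc1. They were taken by gene name from a table of 53465 genes, each name stood on 1 row, and all 10 passed the filter on low counts that left 13528 genes for testing. RNA was sequenced from CD8+ T cells of mouse spleen after 24 h with beads coated in anti-CD3 and anti-CD28, antibodies that stand in for antigen and for costimulation. There were 2 libraries labelled wild type (labelled WT) and 2 labelled PP2Cm KO (labelled KO), and all 4 came from stimulated cells. The labels also write the mutant as PP2Cm-/-. Ppm1k encodes PP2Cm, which removes an inhibitory phosphate from the mitochondrial enzyme complex for breakdown of branched-chain amino acids. The series asks how accumulation of these amino acids bears on glucose use and effector function of CD8+ T cells. The sources used here do not give strain, age, pooling of animals or the part of Ppm1k that was deleted.

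T cell receptor and cytokine signals induce T-bet (Tbx21) and Eomesodermin (Eomes), paralogous T-box factors that open cytotoxic and cytokine genes. Runx3 holds the CD8 lineage and cooperates with both, while Blimp-1 (Prdm1), Zeb2 and Id2 push cells towards terminal effector states and away from the memory programme of Tcf7, Id3 and Bcl6. Bhlhe40, Rora and Nfil3 are also parts or targets of the circadian clock, and Nfatc1 is the NFAT member whose short form is induced by calcium signals from the receptor.

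Ppm1k, the gene named by the knockout, went against the labels. It had 102 and 94 counts under the WT label and 157 and 206 under the KO label. Its log2 fold change was 0.97 (SE 0.23) with an adjusted p of 0.186 by edgeR and 0.1 by DESeq2. Leaving out 1 library moved the fold change to 1.24 or 0.73 (labelled WT replicate 1 or 2) and to 1.10 or 0.83 (labelled KO replicate 1 or 2). The tables hold 1 value a gene, so the exons covered are unknown. The description codes of the samples also name the opposite genotype to the titles and genotype field. Groups here follow the titles, and every sign below would turn if the codes named the genotype. Library totals ran from 12967251 to 17316284 counts, so a count of 0 allows up to 0.173 to 0.231 counts per 1000000 (CPM), counting error alone. Other CPM values are scaled by the TMM method of edgeR. The T cell genes fixed as identity markers were counted in every library. Cd8a stood at 542 and 523 CPM under the WT label and 547 and 511 CPM under the KO label. Of the 9 identity genes, 7 had negative fold changes, and in 4, Cd3d, Cd3g, Lck and Cd28, both labelled KO libraries ranked below both labelled WT ones. Those shares were 51.9% and 23.3% of all genes tested. Cd3d (log2 fold change -0.52), Cd3g (-0.41) and Lck (-0.30) had an unadjusted p under 0.05 by edgeR, as did 7.23% of all genes in that direction. None of the 9 passed after adjustment by edgeR or DESeq2, where 0.207% and 2.04% of all genes did. Of the B cell markers, Ighm made up 94.6% of the sum, which was 426 and 367 CPM against 305 and 269 CPM.

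Promoter sequence of RefSeq (GRCm38.p6) was matched for 8 of the 10 genes, and 4 windows are shown, each the 250 bases before a RefSeq start, 5′ to 3′ on the gene's strand. Tbx21 and Eomes are shown as the paralogous pair whose levels were steadiest, and Prdm1 because it varied widely within both labels. Runx3 is shown by its upstream window, picked because it holds the motif of its own family. Capitals mark matches, on either strand, to the motifs given after the sequences.
Tbx21, chr11:97115332-97115581, minus strand: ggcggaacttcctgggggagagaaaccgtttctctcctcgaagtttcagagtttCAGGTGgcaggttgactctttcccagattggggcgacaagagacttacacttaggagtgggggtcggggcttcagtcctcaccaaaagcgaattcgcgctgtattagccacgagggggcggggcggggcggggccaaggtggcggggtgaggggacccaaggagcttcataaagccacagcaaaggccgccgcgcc
Eomes, chr9:118477939-118478188, plus strand: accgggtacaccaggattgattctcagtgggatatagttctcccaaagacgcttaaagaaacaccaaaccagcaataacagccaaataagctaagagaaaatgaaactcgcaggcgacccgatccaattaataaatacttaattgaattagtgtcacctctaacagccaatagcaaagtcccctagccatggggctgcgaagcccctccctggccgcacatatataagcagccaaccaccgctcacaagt
Runx3, chr4:135120395-135120644, plus strand: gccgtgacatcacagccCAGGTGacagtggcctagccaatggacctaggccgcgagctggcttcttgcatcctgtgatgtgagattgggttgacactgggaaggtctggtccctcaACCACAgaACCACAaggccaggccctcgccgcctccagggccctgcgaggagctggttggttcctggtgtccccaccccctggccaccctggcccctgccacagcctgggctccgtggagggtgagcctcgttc
Prdm1, chr10:44458749-44458998, minus strand: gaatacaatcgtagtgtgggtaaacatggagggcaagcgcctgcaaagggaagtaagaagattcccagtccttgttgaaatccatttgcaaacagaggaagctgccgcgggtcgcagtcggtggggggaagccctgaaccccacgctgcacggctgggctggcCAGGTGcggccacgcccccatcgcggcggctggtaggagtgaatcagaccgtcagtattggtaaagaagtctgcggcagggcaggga

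The letters searched were AGGTGT for T-box factors, TGTGGT for RUNX factors, CACGTG for Bhlhe40, CAGGTG for ZEB factors, AGGTCA for ROR factors, TTANNTAA for Nfil3, TGGAAA for NFAT and AAGTGAAA for Prdm1. The ZEB and T-box letters can overlap by 5 bases. The RUNX letters occur at 134 and 126 bases before the upstream Runx3 start, and 14.0% of 32817 RefSeq windows of this length hold at least 1. The ZEB letters, present in 17.2% of windows, start 196 bases before the Tbx21 start, 87 before the Prdm1 start used and 233 before the upstream Runx3 start. The Prdm1 window lies inside the gene, which spans 44437177 to 44528501 on the minus strand. None of the 8 motifs is in the Eomes window, nor in a further Runx3 window not shown (chr4:135152295-135152544). These matches are a description of the sequence, and no binding was measured. The Runx3 window shown overlaps an exon of the noncoding gene Gm16225.

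By deposited FPKM, Tbx21 was the most abundant of the 10 genes. FPKM is the count per 1000000 counts and per kilobase of a length that the authors used for each gene. For Tbx21 it was 51.9 and 53.2 under the WT label and 54.0 and 48.4 under the KO label. That mean of 51.9 ± 2.47 FPKM (SD, n = 4 libraries) was above 91.5% of the genes tested. Bhlhe40 (24.2 ± 5.8), Nfatc1 (23.1 ± 1.99), Runx3 (19.9 ± 1.93) and Nfil3 (18.6 ± 3.95) followed, in FPKM over the same 4 libraries, and the ranges of neighbours in this order overlapped. Eomes had 11.7 ± 0.813 FPKM and Id2 8.87 ± 2.25 FPKM, with all 4 Eomes values just above the highest Id2 value (10.956 against 10.953 FPKM), a gap far under the spread of either gene. Tbx21 exceeded Eomes 4.44-fold by mean FPKM. This order between genes depends on the lengths behind FPKM. In CPM, which use no length, label means of Tbx21 were 132 and 127 (labelled WT and labelled KO). Those of Nfatc1 (186 and 181 CPM) and Bhlhe40 (176 and 133 CPM) were higher. Runx3, at 144 and 125 CPM, was higher under the WT label only.

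The other 3 genes were far lower. Rora had 0.481 ± 0.274 FPKM, Prdm1 0.379 ± 0.21 FPKM and Zeb2 0.172 ± 0.041 FPKM (SD, n = 4 libraries each), and their ranges overlapped in this order. By mean FPKM, the step from Id2 down to Rora was 18.4-fold, and Tbx21 exceeded Zeb2 301-fold. In CPM, without a length, both gaps were smaller. Label means (labelled WT and labelled KO) were 45.0 and 28.5 CPM for Id2 and 9.83 and 4.49 CPM for Rora. They were 132 and 127 CPM for Tbx21 and 5.97 and 5.82 CPM for Zeb2. In counts, Prdm1 had 22 to 100 per library, Zeb2 59 to 118 and Rora 21 to 147. These 3 genes therefore rest on few reads. After 24 h of stimulation the group thus fell into 7 genes between 6.85 and 54.0 FPKM and 3 genes at 0.762 FPKM or less.

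**Figure D1:**
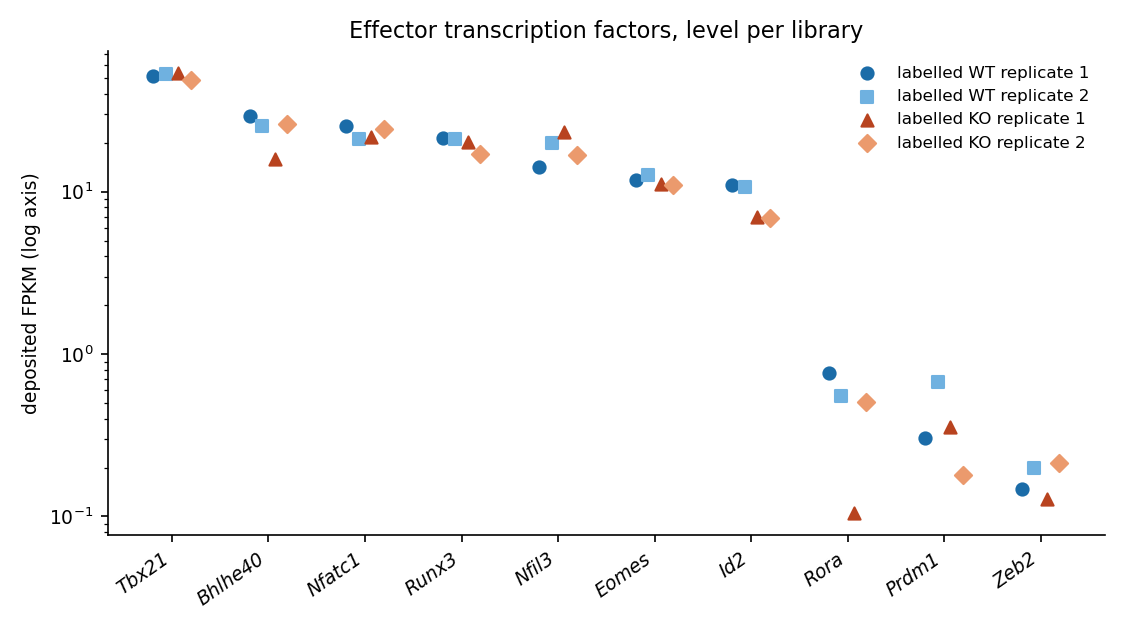
Deposited FPKM on a log axis for each of the 10 genes, with 1 point per library (blue, labelled WT; red and orange, labelled KO), ordered by mean. Tbx21 stands at the top with a mean of 51.9, and Rora, Prdm1 and Zeb2 reach at most 0.762 in any library.

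Whether the group differed between the labels was tested on counts by edgeR's quasi-likelihood test, labelled KO minus labelled WT, with p adjusted over all genes tested. None of the 10 passed an adjusted p of 0.05, where 0.207% of all genes tested did. At an unadjusted p under 0.05 only Id2 was lower, 1 of 10, and none was higher, against 7.23% and 5.7% of all genes. DESeq2 called 1 of the 10, Id2, lower, where it called 1.37% of all genes lower, 0.665% higher and 2.04% in either direction. The replicate block called 0 of the 10, against 0.909% of all genes, 0.34% higher and 0.569% lower. The log2 fold change was negative for 9 of the 10, against 51.9% of all genes, and positive for Nfil3, against 48.1%. The median was -0.19, beside -0.01 over all genes tested. In 5 genes, Eomes, Id2, Runx3, Bhlhe40 and Rora, both labelled KO libraries ranked below both labelled WT ones, an order found in 23.3% of all genes. The opposite order occurred in 0 of the 10 and in 21.5% of all genes, so that 44.9% of all genes had no overlap. With 2 libraries per label, described as biological replicates, an exact permutation test of a single gene cannot go below p = 0.333, so the adjusted p values rest on spread pooled across genes.

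**Figure D2:**
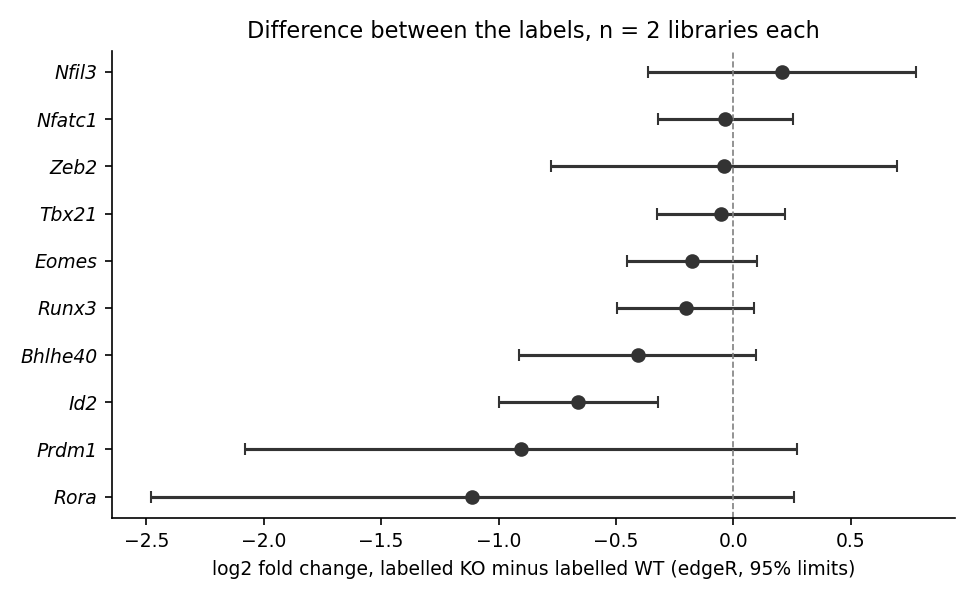
The edgeR log2 fold change of each gene (point) with its 95% limits (bars), labelled KO minus labelled WT, 2 libraries each. The limits of Id2 (-0.998 to -0.322) lie wholly below 0, and those of the other 9 genes include 0.

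Of the T-box pair, Tbx21 (ENSMUSG00000001444, chromosome 11 from 97098071 to 97115331, minus strand, GRCm38) was nearly level across the libraries. It stood at 129 and 135 CPM under the WT label and at 135 and 118 CPM under the KO label, and the labels overlapped. Between the labels the log2 fold change was -0.05 (95% limits -0.33 to 0.22, adjusted p = 0.892 by edgeR). Without labelled KO replicate 2 it was 0.044.

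Eomes (ENSMUSG00000032446, chromosome 9 from 118478212 to 118486132, plus strand) sustains memory as well as effector cells. It stood at 84.4 and 92.8 CPM under the WT label and at 80.1 and 76.9 CPM under the KO label. Both labelled KO values were the lower ones, by a small margin. Its log2 fold change was -0.17 (95% limits -0.45 to 0.10, adjusted p = 0.582 by edgeR), and -0.10 without labelled WT replicate 2. Eomes shares exon positions with an antisense gene, Gm33460, which had 2 to 4 counts per library.

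Id2, an inhibitor of E-protein transcription factors that supports effector survival, showed the clearest separation of the group. The gene (ENSMUSG00000020644) lies on chromosome 12 from 25093799 to 25097140, minus strand. It stood at 45.1 and 45.0 CPM under the WT label and at 29.2 and 27.8 CPM under the KO label. Replicates of each label were close to each other, and the labels stood apart. Id2 was 1.58-fold lower under the KO label, with a log2 fold change of -0.66 (SE 0.14, 95% limits -0.998 to -0.322). Its unadjusted p was 0.00251 and its adjusted p 0.149 by edgeR, while DESeq2 gave an adjusted p of 0.0214. Over all alternatives the adjusted p ran from 0.0214 to 0.621 and the log2 fold change from -0.69 to -0.58.

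Bhlhe40, a helix-loop-helix repressor that supports cytokine output and mitochondrial fitness of T cells, separated the labels mainly through 1 library. The gene (ENSMUSG00000030103) lies on chromosome 6 from 108660629 to 108666925, plus strand, and its antisense neighbour 0610040F04Rik had 0 to 2 counts. It stood at 188 and 165 CPM under the WT label and at 102 and 164 CPM under the KO label. Labelled KO replicate 2 was within 2 CPM of labelled WT replicate 2, and labelled KO replicate 1 was far below all the others. The fitted log2 fold change was -0.41 (SE 0.21, adjusted p = 0.48 by edgeR). It came to -0.11 when labelled KO replicate 1 was left out and to -0.78 without labelled KO replicate 2.

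Runx3 (ENSMUSG00000070691, chromosome 4 from 135120652 to 135177990, plus strand) keeps CD4 silent in the CD8 lineage and primes cytotoxic genes. It stood at 143 and 144 CPM under the WT label and at 136 and 113 CPM under the KO label. The libraries labelled WT were nearly equal, and labelled KO replicate 2 was the lowest. Between the labels the log2 fold change was -0.20 (SE 0.12, adjusted p = 0.546 by edgeR). Without labelled KO replicate 2 it was -0.07, and without labelled KO replicate 1 it was -0.34.

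The zinc finger repressors were low and uneven. Prdm1 (ENSMUSG00000038151, chromosome 10 from 44437177 to 44528501, minus strand) encodes Blimp-1, which shuts down Il2 and memory genes. It stood at 2.61 and 5.89 CPM under the WT label and at 3.08 and 1.52 CPM under the KO label. The labels overlapped, because labelled KO replicate 1 lay above labelled WT replicate 1. Exact Poisson limits, which cover counting error alone, were 1.81 to 3.65 CPM and 4.79 to 7.16 CPM for labelled WT replicates 1 and 2, so these replicates differed by more than their counting error. A gap as wide as that of the labelled WT replicates, on log2(CPM + 0.5), was seen in 2.71% of genes tested. Its log2 fold change was -0.91 (SE 0.49, adjusted p = 0.502 by edgeR). It came to -0.19 when labelled WT replicate 2 was left out and to -1.49 without labelled KO replicate 1.

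Zeb2 (ENSMUSG00000026872, chromosome 2 from 44983632 to 45117395, minus strand) acts with T-bet in terminal effector cells. It stood at 4.99 and 6.95 CPM under the WT label and at 4.44 and 7.2 CPM under the KO label. Replicate 2 was the higher library under both labels, and the labels overlapped fully. The fitted log2 fold change was -0.04 (95% limits -0.78 to 0.70, adjusted p = 0.973 by edgeR). It came to 0.22 when labelled WT replicate 2 was left out and to 0.26 without labelled KO replicate 1. Its antisense partner Zeb2os had 1 to 3 counts per library.

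Rora, a nuclear receptor of effector and innate-like lymphocytes, had the largest fitted difference of the 10 and the widest spread. The gene (ENSMUSG00000032238) lies on chromosome 9 from 68653786 to 69388246, plus strand. It stood at 11.3 and 8.36 CPM under the WT label and at 1.58 and 7.41 CPM under the KO label. Labelled KO replicate 1, with 21 counts, was far below the other 3 libraries, which had 107 to 147. Its Poisson limits of 0.977 to 2.41 CPM did not reach those of labelled KO replicate 2, 6.07 to 8.95 CPM. A gap as wide between the libraries labelled KO was seen in 0.318% of genes tested. Between the labels the log2 fold change was -1.11 (SE 0.58, adjusted p = 0.479 by edgeR), and it came to -0.40 when labelled KO replicate 1 was left out and to -2.62 without labelled KO replicate 2. On log2(FPKM + 1), which compresses low values, it was -0.36.

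Nfil3, a leucine zipper repressor tied to the circadian clock, was the 1 gene with a positive fold change. It (ENSMUSG00000056749) lies on chromosome 13 from 52967209 to 52981073, minus strand. It stood at 28.7 and 41.3 CPM under the WT label and at 47.6 and 33.4 CPM under the KO label. The highest value was in labelled KO replicate 1, the library in which Rora and Bhlhe40 were lowest, a match that was not tested. The labels overlapped. Its log2 fold change was 0.21 (SE 0.24, adjusted p = 0.775 by edgeR). It came to -0.023 when labelled WT replicate 1 was left out and to -0.071 without labelled KO replicate 1.

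Nfatc1 (ENSMUSG00000033016) carries calcium signals from the receptor to the nucleus. It stood at 201 and 171 CPM under the WT label and at 174 and 189 CPM under the KO label. The labels overlapped and no library stood apart. The fitted log2 fold change was -0.03 (95% limits -0.32 to 0.25, adjusted p = 0.942 by edgeR), and it came to 0.090 when labelled WT replicate 1 was left out and to 0.025 without labelled KO replicate 1. Counts per gene do not separate its short from its long isoforms.

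**Figure D3:**
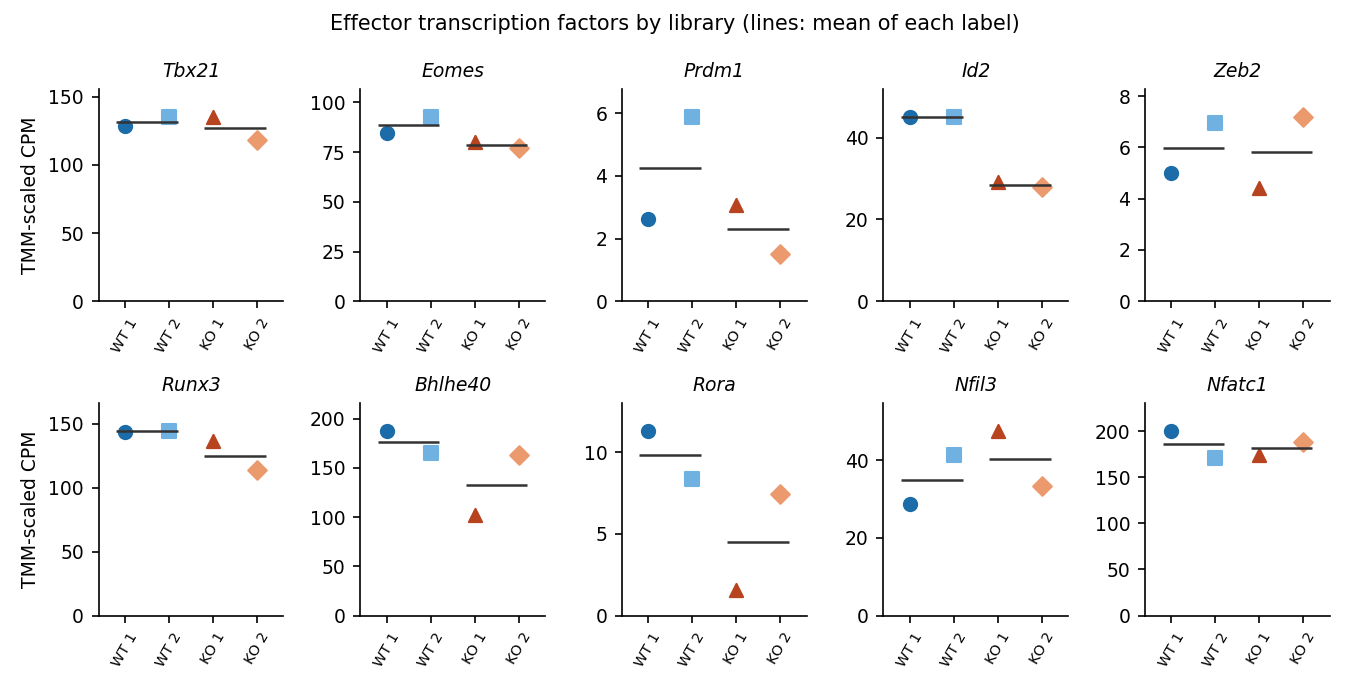
TMM-scaled CPM of each gene in the 4 libraries, with the mean of each label as a line and all axes starting at 0. Id2 separates the labels with close replicates (45.1 and 45.0 against 29.2 and 27.8 CPM), whereas Bhlhe40 and Rora are low in labelled KO replicate 1 alone.

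Ratios within a library do not depend on how libraries are scaled, so 8 ratios of a factor to a paralogue or antagonist were taken from FPKM. The size of a ratio does depend on the length used for each gene. In 7 of them every library gave a value. None could pass, since the smallest exact two-sided permutation p is 0.333 (0.583 adjusted over the 7). Tbx21 stood at 4.37 and 4.17 times Eomes under the WT label and at 4.85 and 4.42 times under the KO label, so the balance of the T-box pair moved by 0.12 on the log2 scale. Id2 stood at 0.796 and 0.746 times Id3, its memory-associated relative, under the WT label and at 0.555 and 0.481 times under the KO label. Id3 thus exceeded Id2 by FPKM in all 4 libraries, but not by CPM. Under the WT label Id2 stood at 45.1 and 45.0 CPM and Id3 at 31.4 and 33.4 CPM. Under the KO label Id2 stood at 29.2 and 27.8 CPM and Id3 at 29.2 and 32.1 CPM. The Id2 to Id3 ratio differed by -0.58 (log2), while Id3 itself was fitted at -0.08 on the log2 scale (adjusted p = 0.869 by edgeR).

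Runx3 exceeded Runx1, the RUNX factor of naive and progenitor cells, 40.4- and 41.0-fold under the WT label and 30.7- and 29.8-fold under the KO label. That log2 ratio was 5.35 ± 0.013 against 4.92 ± 0.031 (SD, n = 2 each), a difference of -0.43. Runx1 was low, at 0.513 to 0.655 FPKM and 125 to 162 counts. Neither gene passed on its own, with adjusted p of 0.546 for Runx3 and 0.662 for Runx1 by edgeR. Tcf7, which encodes the memory and naive factor TCF-1, exceeded Tbx21 in every library. Tbx21 stood at 0.246 and 0.311 times Tcf7 under the WT label and at 0.403 and 0.408 times under the KO label, a log2 difference of 0.55. The ratios of these 4 pairs of the 7 did not overlap between the labels, where the levels of 44.9% of all genes did not. For Tbx21 to Eomes the nearest values of the labels were 2.13 and 2.14 on the log2 scale.

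The ratios of Zeb2 to Zeb1, Prdm1 to Bcl6 and Nfatc1 to Nfatc2 overlapped. Zeb2 was 0.0644 to 0.106 times Zeb1, so the ZEB paralogue tied to naive and memory cells was the more abundant in all 4 libraries. Prdm1 was 0.274 and 0.906 times Bcl6, its mutual antagonist, under the WT label and 0.849 and 0.368 times under the KO label. Nfatc1 was 10.8 and 3.95 times Nfatc2 under the WT label and 3.86 and 4.91 times under the KO label. The high value of labelled WT replicate 1 went with its low Nfatc2, at 2.34 FPKM against 4.92 to 5.62 elsewhere. Bhlhe41 had 6, 6, 0 and 3 counts, too few for a ratio to Bhlhe40 in every library.

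**Figure D4:**
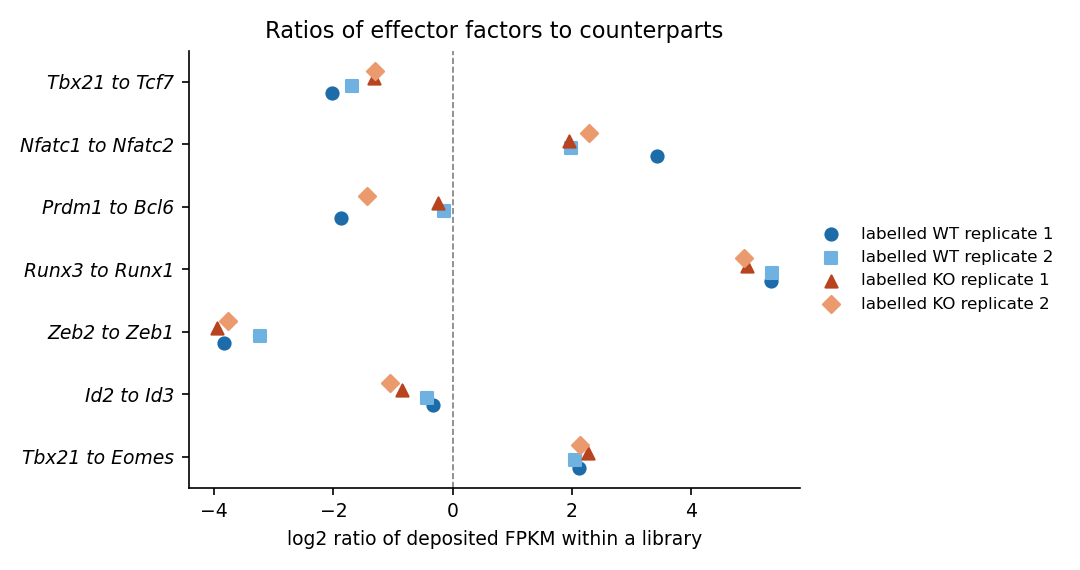
The log2 ratio of deposited FPKM within each library for the 7 ratios with a value in all 4, 1 point per library. The labels stand apart without overlap for Tbx21 to Eomes, Id2 to Id3, Runx3 to Runx1 and Tbx21 to Tcf7, and overlap for the other 3. Levels of 44.9% of all genes also showed no overlap.

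Family relatives and dimer partners of the 10 genes were described from a list of 20, of which 16 could be tested. None passed by edgeR, while 2 were higher and 1 lower at an unadjusted p under 0.05, and DESeq2 and the replicate block each called 1, Nfat5, higher (adjusted p = 0.00492 and 0.0128). Over all genes those shares were 5.7% and 7.23% by unadjusted p, 0.665% higher by DESeq2 and 0.34% higher with the replicate block. Their median log2 fold change was 0.18, beside -0.01 over all genes. Nfat5, the tonicity-responsive NFAT relative, stood at 83.8 and 115 CPM under the WT label and 153 and 226 CPM under the KO label, 1.91-fold higher with an adjusted p of 0.179 by edgeR, or 0.0372 without labelled WT replicate 2 and 0.607 without labelled KO replicate 2. Id1, an Id2 relative, was fitted at 2.27 on the log2 scale (adjusted p = 0.199) from levels of 0.177 to 1.95 CPM. The E protein Tcf3, a target of Id2 inhibition, had a log2 fold change of -0.35, Runx2 -0.61, the RUNX partner Cbfb 0.19 and Nfatc3 -0.08. None of these 4 had an adjusted p under 0.332. Leaving out 1 library moved Runx2 to -0.30 (without labelled KO replicate 1), -0.34 (labelled WT replicate 2) or -1.01 (labelled KO replicate 2), Tcf3 to -0.20 (labelled KO replicate 2), Cbfb to 0.13 (labelled WT replicate 2) and Nfatc3 to -0.011 or -0.15 (labelled WT replicate 1 or 2). The relatives not tested were Bhlhe41, Rorb, Tbx1 and Tbr1, of which the last 3 had 0 counts in every library.

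Naive and memory factors that oppose the effector programme had mostly negative fold changes, none of which passed the test by edgeR. Of 11 tested, 9 had negative and 2 positive fold changes on the log2 scale, where 51.9% of all genes were negative. The median was -0.30, beside -0.01 over all genes. In 7 both labelled KO libraries ranked below both labelled WT ones (23.3% of all genes). Before adjustment, p was under 0.05 for 5 lower and 0 higher genes, against 7.23% and 5.7% of all genes. DESeq2 called 4 lower, Foxp1, Klf2, Tcf7 and Myb, where it called 1.37% of all genes lower. Tcf7 stood at 705 and 585 CPM under the WT label and at 452 and 391 CPM under the KO label (log2 fold change -0.61, adjusted p = 0.167 by edgeR and 0.0109 by DESeq2). Foxp1, a quiescence factor, was fitted at -0.70 on the log2 scale (adjusted p = 0.117 by edgeR), Klf2, which drives egress receptors, -0.81 (0.146) and Myb, which supports stem-like cells, -1.17 (0.18). Bcl6 was fitted at -1.04 on the log2 scale (adjusted p = 0.228) from 3.16 to 8.3 CPM, Lef1 -0.19 (0.522) and Satb1 0.06 (0.898). Satb1 came to -0.082 when labelled WT replicate 2 was left out and to -0.018 without labelled KO replicate 1. Leaving out labelled WT replicate 2 brought Foxp1, Tcf7 and Myb to -0.86, -0.74 and -1.53 on the log2 scale. Without labelled KO replicate 2 the same genes were at -0.69, -0.51 and -1.28. Without labelled WT replicate 1 they came to -0.52, -0.47 and -0.70, and Lef1 to -0.12. Effector factors and their antagonists thus both had negative medians.

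Receptors and signalling factors upstream of the group included the 2 genes called by edgeR in any of these lists, Irf4 and Il2ra, both higher under the KO label. Of 22 tested, 7 had positive and 15 negative fold changes on the log2 scale, where 51.9% of all genes were negative. The median was -0.14, beside -0.01 over all genes. Before adjustment, 3 higher and 6 lower genes had p under 0.05, and DESeq2 and the replicate block each called Irf4 and Il2ra higher and Ifngr1 lower. The shares of all genes were 5.7% and 7.23% by unadjusted p, 0.103% higher by edgeR after adjustment, and 0.665% higher and 1.37% lower by DESeq2. With the replicate block they were 0.34% higher and 0.569% lower. Irf4, a receptor-induced factor that acts with BATF upstream of Prdm1 and Tbx21, stood at 451 and 390 CPM against 867 and 890 CPM, with an adjusted p of 0.0415. Il2ra, whose signal through STAT5 raises Prdm1 and Eomes, stood at 523 and 508 CPM against 983 and 937 CPM, with an adjusted p of 0.0488. Both lost the call without labelled KO replicate 2 (adjusted p = 0.179 and 0.188), and Il2ra also without labelled KO replicate 1 (0.0909). On log2(FPKM + 1), limma gave an adjusted p of 0.0838 and 0.0809. The adjusted p ranged from 1.38e-11 to 0.179 for Irf4 and 1.35e-10 to 0.188 for Il2ra over all alternatives.

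Ifngr1 and Ifnar1, chains of the interferon receptors, had negative fold changes. Ifngr1 stood at 133 and 122 CPM under the WT label and 72.6 and 64.7 CPM under the KO label, 1.86-fold lower with an adjusted p of 0.0502 by edgeR, 0.0196 with the replicate block and 5.77e-06 by DESeq2. Without labelled WT replicate 1 or 2 its log2 fold change was -0.83 or -0.95. Without labelled KO replicate 1 or 2 it was -0.98 or -0.81. Interferon gamma signals through this chain to induce Tbx21. Ifnar1 was fitted at -0.56 on the log2 scale (adjusted p = 0.186), the kinase Tyk2 -0.36 (0.309) and Il2rb, a T-box target that binds interleukins 2 and 15, -0.41 (0.325), none past the threshold. Tyk2 came to -0.24 without labelled WT replicate 2 and Il2rb to -0.27 without labelled KO replicate 2. Il2rb stood at 1006 and 1181 CPM under the WT label and at 903 and 740 CPM under the KO label.

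Effector genes linked to these factors were described from a list of 31, of which 27 could be tested. They include Il2, which Blimp-1 shuts down, so the list has no single direction. None passed by edgeR, 3 were higher and 9 lower at an unadjusted p under 0.05, and DESeq2 called 2 higher and 3 lower. Of all genes, 5.7% were higher and 7.23% lower by unadjusted p, and 0.665% higher and 1.37% lower by DESeq2. The replicate block called 1 higher, Il2, and 2 lower, Klrd1 and Ccl5, with adjusted p of 0.0172, 0.0244 and 0.0123. It called 0.34% of all genes higher and 0.569% lower. Of the 27, 8 had positive and 19 negative fold changes on the log2 scale, where 51.9% of all genes were negative. The median was -0.42, beside -0.01 over all genes. In 11 both labelled KO libraries ranked below both labelled WT ones, and in 2 above, against 23.3% and 21.5% of all genes. Il2 stood at 1.69 and 1.3 CPM under the WT label and 4.96 and 8.86 CPM under the KO label (log2 fold change 2.22, adjusted p = 0.0883 by edgeR and 0.002 by DESeq2). Tnf was fitted at 0.63 on the log2 scale (adjusted p = 0.177 by edgeR and 0.0373 by DESeq2).

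Klrd1, which encodes the CD94 receptor of NK cells and effector T cells, stood at 7.53 and 9.89 CPM against 2.41 and 3.32 CPM (log2 fold change -1.60, adjusted p = 0.0915 by edgeR). The chemokine Ccl5 stood at 14.7 and 22.4 CPM against 6.09 and 8.1 CPM (log2 fold change -1.39, adjusted p = 0.115). Cxcr3, a T-bet target and homing receptor, stood at 53.2 and 68.6 CPM against 36.0 and 35.4 CPM (log2 fold change -0.77, adjusted p = 0.149). DESeq2 called these 3 lower, with adjusted p of 0.00845, 0.00349 and 0.0103. Without labelled WT replicate 1, the log2 fold changes of Klrd1, Ccl5 and Cxcr3 were -1.78, -1.65 and -0.94. Without labelled WT replicate 2 they were -1.39, -1.05 and -0.57, and without labelled KO replicate 2 they were -1.85, -1.60 and -0.75. Il2 was fitted at 2.42 without labelled WT replicate 1, 2.57 without labelled KO replicate 1 and 1.74 without labelled KO replicate 2. The most abundant effector genes per length did not separate. Gzmb was fitted at -0.31 on the log2 scale (adjusted p = 0.616 by edgeR), Xcl1 0.45 (0.662) and Nkg7 -0.12 (0.828). Gzmb was 0.075 without labelled WT replicate 2, Xcl1 -0.32 without labelled KO replicate 2, and Nkg7 0.085 and 0.060 without labelled WT replicate 2 or labelled KO replicate 1. The list members not tested were Il10, Klrg1, S1pr5 and Itga1, with 0 to 13 counts per library. Klrg1, the usual surface marker of terminal effectors, had 9, 6, 0 and 8 counts.

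Circadian genes, as partners of Bhlhe40, Rora and Nfil3, had mostly positive fold changes without passing the test. Of 11 tested, 9 had positive fold changes on the log2 scale, against 48.1% of all genes. The median was 0.19, beside -0.01 over all genes, and none passed by edgeR or DESeq2. At an unadjusted p under 0.05, 2 were higher, Clock (log2 fold change 0.58, adjusted p = 0.332) and Per2 (0.52, adjusted p = 0.369), against 5.7% of all genes. Clock came to 0.35 without labelled WT replicate 2. Cry2 had 0.30, Cry1 0.19, Nr1d1 0.45 and Nr1d2 0.30, with Per1, the most abundant with Cry1 and Nr1d2, at -0.20. Single libraries moved these small values: without labelled WT replicate 1 or 2, Nr1d2 came to 0.59 or 0.051 and Cry1 to 0.31 or 0.076, and without labelled KO replicate 2 Nr1d2 came to 0.19. Nr1d1 came to 0.22 or 0.76 without labelled WT replicate 1 or 2 and to 0.18 or 0.69 without labelled KO replicate 1 or 2. Nr1d1, which encodes a repressor that competes with ROR proteins for DNA, stood at 5.15 and 7.48 CPM under the WT label and at 10.2 and 7.2 CPM under the KO label. Its highest value was in labelled KO replicate 1, where Rora was lowest, a match in 1 library that was not tested.

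**Figure D5:**
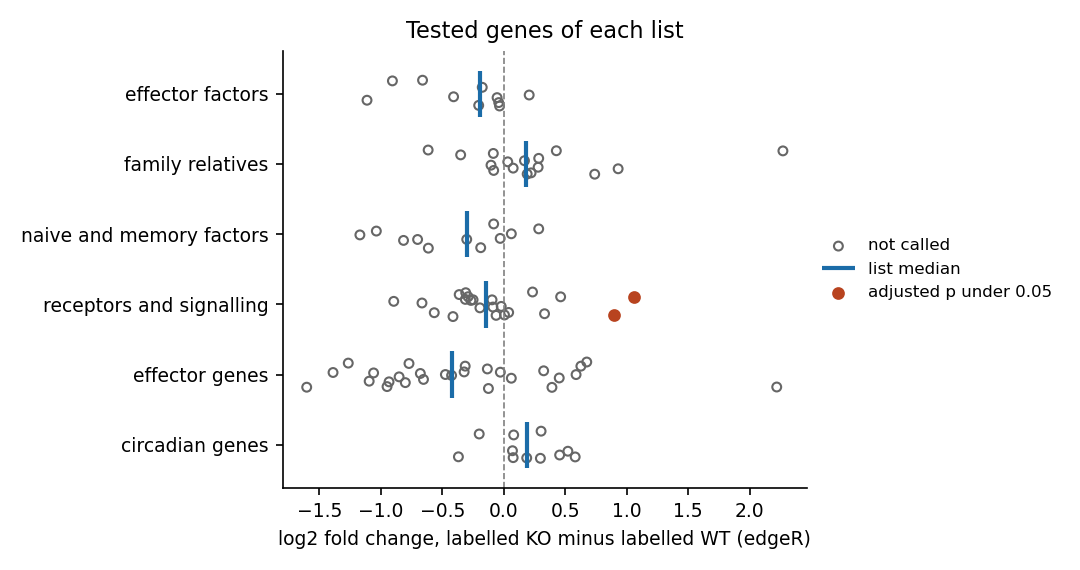
The edgeR log2 fold change of every tested gene of each list (open circles, filled red where the adjusted p was under 0.05), with the list median as a blue bar. The median of the effector factors is -0.19 and that of the effector genes -0.42, and the 2 called genes are Irf4 and Il2ra.

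Several of the 10 genes are also expressed by other cells, so markers of those cells were summed. In bulk RNA, fewer cells of a type and less RNA per cell cannot be told apart. Markers of NK, innate lymphoid and gamma-delta T cells, which express Id2, Rora and Zeb2, summed to 10.8 and 15.7 CPM under the WT label and 16.5 and 13.7 CPM under the KO label, with all 8 counted. Ncr1 had 0 CPM in labelled WT replicate 1 and at most 1.18 CPM elsewhere. Myeloid markers, whose cells express Zeb2 and Prdm1, summed to 4.92 and 9.71 against 6.32 and 6.3 CPM, with 8 of 9 counted and S100a9 at 0 in every library. The myeloid sum and Prdm1 were both highest in labelled WT replicate 2. Their lowest values were in different libraries, labelled WT replicate 1 for the sum and labelled KO replicate 2 for Prdm1. Dendritic cell markers summed to 18.2 and 22.3 against 23.3 and 21.8 CPM, with all 7 counted.

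CD4 and regulatory T cell markers summed to 65.5 and 58.6 against 90.2 and 77.3 CPM, higher in both libraries labelled KO, with all 6 counted. Both libraries labelled KO ranked above both labelled WT ones in 21.5% of all genes. Gata3, which activated CD8+ T cells also express, made up 43.5% of the marker sum. It was fitted at 0.77 on the log2 scale (adjusted p = 0.19 by edgeR and 0.0328 by DESeq2, which called 0.665% of all genes higher). Cd4 was fitted at 0.96 (adjusted p = 0.369 by edgeR). Zbtb7b, the factor of the CD4 lineage, went the other way, from 9.53 and 16.7 CPM to 9.02 and 7.06 CPM (log2 fold change -0.71, adjusted p = 0.383 by edgeR). Erythroid and platelet markers summed to 2.61 and 5.0 against 1.43 and 2.01 CPM, lower in both libraries labelled KO, with 6 of 7 counted and Alas2 at 0. The B cell sum, with all 8 counted, and the CD8 identity sum (3119 and 2844 against 2751 and 2587 CPM, all 9 counted) were also lower in both. The erythroid and platelet, B cell and CD8 identity sums thus had the same order as Id2. That order was found in 23.3% of all genes. The part of these cells in the values of the 10 genes was not tested.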

How the data were processed

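Counts per gene were deposited by the authors as whole, unnormalized numbers, per the file headers, together with FPKM, which the authors scaled by a length per gene and library total. Dividing count by FPKM and library total gave the same length in every library to within 0.0017% for genes with 50 or more counts in each library. That length was not compared with the annotation. The submitters' processing notes name kallisto and GRCm38; the sources used here do not give the counting, strand setting or filters. Columns were joined to samples by description code; 8 other columns of values were not used. The members and lists were chosen with earlier results of these data known, so no list is independent support. Some genes stand in more than one list: Dbp among relatives and circadian genes, Id3 and Zeb1 among relatives and naive factors.

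Genes were filtered by filterByExpr, scaled by TMM and tested with edgeR 4.0.16 (R 4.3.3), glmQLFit and glmQLFTest, Benjamini-Hochberg over 13528 genes, threshold 0.05, two-sided. Standard errors are the log2 fold change over the square root of F. Alternatives were DESeq2 1.42.0 on the same genes, RLE scaling, no filter, a replicate block, each library left out, and limma 3.58.1 on log2(FPKM + 1) and log2(FPKM + 0.1). Simulated counts were run through edgeR with TMM and no block, DESeq2, and limma on log2(CPM + 1). The other alternatives were not run on them. Named genes are the 10 members and, from each list, genes past the threshold, the 5 with the smallest p and the 3 with the highest FPKM. Replicates have no stated source animal, so p values measure the spread between these libraries.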

Additional observations from a re-analysis of the deposited data

How the results depend on the processing

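Of the 10 effector factors, edgeR called 0, and so did RLE scaling, no filter, the replicate block, each library left out (0 to 0) and both FPKM fits; DESeq2 called 1, Id2. Over all genes, 28 calls became 276 by DESeq2, 146 with no filter, 123 with the replicate block, 5 on log2(FPKM + 1), 4 on log2(FPKM + 0.1) and 3 to 266 as single libraries were left out (3 without labelled KO replicate 2, 54 without labelled KO replicate 1, 199 and 266 without labelled WT replicates 2 and 1). Such fits take their spread from the other label's pair. For the lists, calls moved from 0 to 1 for family relatives by DESeq2 and by the replicate block, from 0 to 4 for naive and memory factors by DESeq2, and from 0 to 5 and 3 for effector genes by DESeq2 and the block. Fold changes of the 10 genes kept sign and side of the threshold in 92 gene-by-alternative values, crossed the threshold in 1 and turned sign in 7. Signs turned with 1 library left out, where fold changes ran from -0.15 to 0.044 for Tbx21, -0.43 to 0.26 for Zeb2, -0.071 to 0.49 for Nfil3, -0.14 to 0.090 for Nfatc1, -0.082 to 0.23 for Satb1, -0.61 to 0.075 for Gzmb, -0.32 to 0.95 for Xcl1 and -0.33 to 0.085 for Nkg7. The cause was not tested. The 7 ratios moved by less than 1 SD when taken from CPM + 0.5.

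The labels do not say that a replicate number is a shared animal or day, so the numbers were not taken as pairs. Deviations of same-numbered libraries from their group means had a weak negative correlation across genes (-0.172). A block with the numbers crossed, chosen after seeing the data, called 12 genes and 0 of the 10. Prdm1, Zeb2 and Rora had 21 to 147 counts, which limits the precision of each library, and the libraries labelled WT for Prdm1 and labelled KO for Rora differed by more than counting error.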
